A study of Mus musculus with 12 samples.

Results

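Toll-like receptors were followed through RNA sequencing of subcutaneous colorectal tumours in mice, as 10 genes: Tlr1, Tlr2, Tlr3, Tlr4, Tlr6, Tlr7, Tlr8, Tlr9, Tlr12 and Tlr13. They are 10 of the 17875 genes in the deposited tables, taken by gene symbol, and the set was chosen by the level of Tlr12 in low-dose tumours relative to the other groups. The low-dose values of Tlr12 are therefore given as a description with no test, and nothing is read from calls in comparisons that involve the low dose. The 12 libraries came from 4 groups of 3. Low-dose tumours grew in mice under chronic stress that received a low dose of Xiao-chai-hu decoction, a herbal preparation, and high-dose tumours in stressed mice that received a high dose of it. Stress tumours grew in mice under chronic stress without decoction, and control tumours in mice with the tumour alone, so that all 4 groups carried a tumour and 3 of them shared the stress. Each decoction group thus differed from the stress group by the decoction, while no group received decoction without stress. The labels give no amount for either dose and no strain, age or tumour cell line. They do not say whether replicates are separate animals, so the p-values speak for the scatter of these libraries, which may be technical.

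Toll-like receptors are membrane proteins that recognise molecules of microbes or of damaged cells and start inflammatory signalling. Tlr1, Tlr2, Tlr4 and Tlr6 work at the cell surface and respond to lipid-bearing products, whereas Tlr3, Tlr7, Tlr8, Tlr9 and Tlr13 sit in endosomes and respond to nucleic acids. Tlr12, which mice have and humans lack, works with Tlr11 in sensing profilin, an actin-binding protein of protozoan parasites. All of them except Tlr3 signal through the adaptor Myd88; Tlr3 uses Ticam1, and Tlr4 uses both. In tumour tissue they are carried mainly by macrophages and dendritic cells, and some by tumour, stromal or endothelial cells.

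The libraries held 16734741 to 17950195 estimated counts, and 15476 to 15775 genes were above 0 in each. After a filter that asked for about 10 counts in at least 1 group's worth of libraries, 13453 genes were tested, all 10 receptors among them. Tlr12 was at or below 10 counts in the low-dose libraries, so it passed through the other groups. By edgeR's quasi-likelihood test, no gene of the 13453 had an adjusted p under 0.05 in any of the 6 comparisons between groups, which is a background of 0%. An unadjusted p under 0.05 was found for 140 to 1796 genes per comparison, and DESeq2, run as an alternative, called 0 to 95. Without low-dose replicate 1, edgeR called 1244 genes for low dose over stress, 652 for low dose over control and 99 for high dose over low dose. Macrophage markers were abundant in every library, as the sum over 10 genes of CPM (counts scaled to library size), between 1175 in a stress tumour and 2661 in a low-dose tumour. Epithelial markers were not: the keratin genes Krt8, Krt18 and Krt20 were at 0 in 7, 11 and 8 of the 12 libraries, and the intestinal stem cell gene Lgr5 in 10. Epcam reached at most 0.81 CPM, and Cdh1, the epithelial cadherin, lay between 4.0 and 16.9 CPM. Skeletal muscle transcripts stood out in 3 libraries, low-dose replicate 3, high-dose replicate 2 and control replicate 1, with summed CPM of 161.6, 388.4 and 190.6, against 2.2 to 27.1 in the other 9.

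Measured in TPM, which scales for gene length as well as library size, the receptors spanned more than a decade in level. The mean over 12 libraries was 16.4 TPM for Tlr2, 14.3 for Tlr3 and 13.4 for Tlr4, then 9.14 for Tlr13, 6.76 for Tlr8 and 6.17 for Tlr7. Tlr1 had a mean of 4.24 TPM, Tlr6 of 3.20, Tlr9 of 1.75 and Tlr12 of 1.19. The ratio of the highest to the lowest library in TPM was 13.6 for Tlr12 and 15.4 for Tlr9, the 2 scarcest receptors, but 1.67 for Tlr6, the next scarcest, and 1.82 for Tlr4. In CPM, scaled by library size and a factor from the trimmed mean of M-values (TMM), it was 10.8, 12.1, 1.57 and 1.43 in that order. The lowest Tlr12 libraries are the low-dose ones for which the gene was chosen. Summed over the 10 genes, low-dose tumours held 104.3, 44.6 and 56.2 TPM, high-dose tumours 91.5, 71.4 and 77.4, stress tumours 97.1, 84.8 and 67.2, and control tumours 78.5, 74.7 and 70.1. The low-dose group thus contained both the highest and the lowest summed receptor TPM of all 12 libraries. Low-dose replicate 2 held fewer TPM at a like CPM, however. Tlr4 stood there at 48.8 CPM and 9.16 TPM, against 50.3 CPM and 11.88 TPM in control replicate 2. The size of that low sum therefore depends on the scale used.

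**Figure D1:**
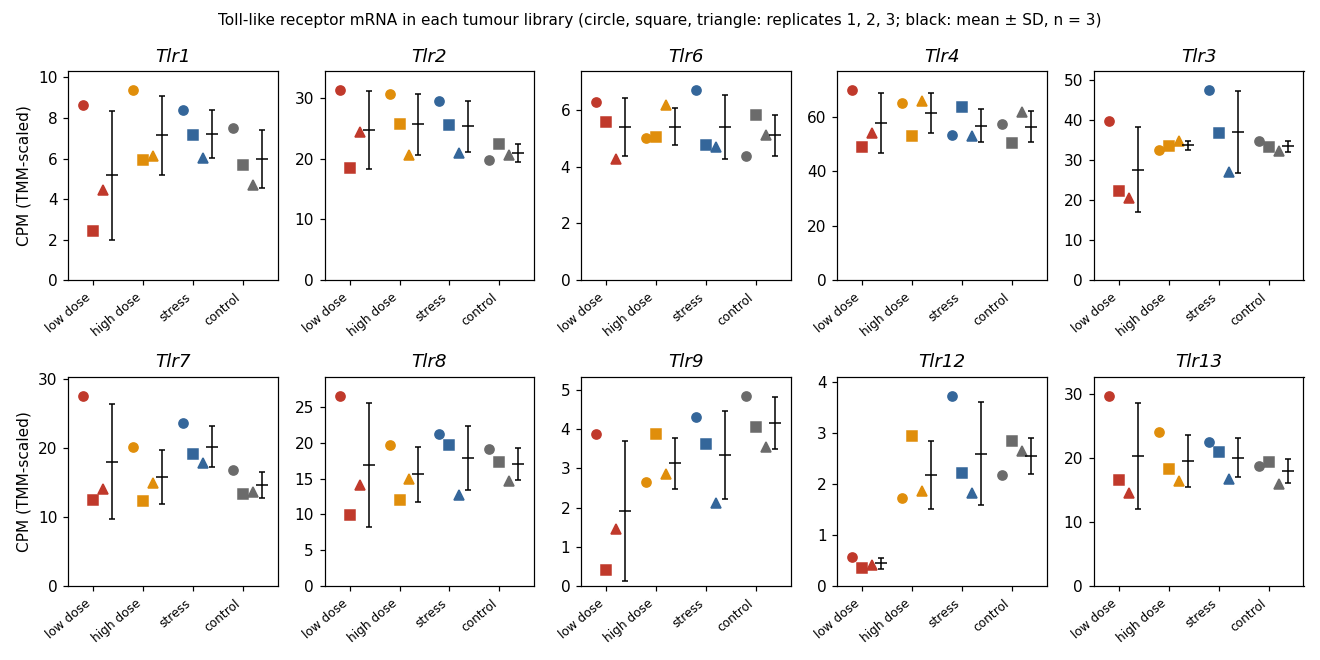
Level of each Toll-like receptor in each library, in CPM scaled by the trimmed mean of M-values (TMM), with libraries from left to right in the low-dose, high-dose, stress and control groups; circles, squares and triangles are replicates 1, 2 and 3, and black bars are the mean ± SD of 3 libraries. The low-dose libraries of Tlr12 lie below all 9 others, while for the other 9 genes they lie on both sides of the stress mean.

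Tlr12 (Entrez gene 384059) is a gene of 1 exon with 2718 coding bases on the minus strand of chromosome 4, at chr4:128615446-128618619 in GRCm38.p6. RefSeq also lists Tlr11 as a synonym of it, but the gene named Tlr11 in the tables has another identifier and is described separately. Low-dose tumours had 10, 6 and 7 Tlr12 counts in replicates 1, 2 and 3. High-dose tumours had 31, 50 and 32 counts, stress tumours 64, 38 and 32, and control tumours 37, 49 and 44. All 3 low-dose libraries were below all 9 others, and the other 3 groups overlapped. In TPM, low-dose tumours stood at 0.35, 0.17 and 0.23, high-dose tumours at 1.07, 1.75 and 1.18, stress tumours at 2.32, 1.37 and 1.12, and control tumours at 1.36, 1.77 and 1.6. Exact 95% Poisson intervals, which cover counting error only, reached 18.4, 13.1 and 14.4 counts in the low-dose libraries.

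The mean was 0.443 ± 0.110 CPM in low-dose tumours, 2.17 ± 0.667 in high-dose tumours, 2.59 ± 1.005 in stress tumours and 2.55 ± 0.349 in control tumours (SD, n = 3 each). The fitted log2 difference was −2.53 (SE 0.38) for low dose over stress, −2.51 (SE 0.38) for low dose over control and 2.27 (SE 0.38) for high dose over low dose. These 3 sizes describe the values for which the gene was chosen, and each pair of them shares a group of libraries. Tlr12 made up 0.336%, 0.382% and 0.409% of the summed TPM of the 10 receptors in low-dose tumours, and 1.17% to 2.45% in the other 9 libraries. The gene was therefore scarce in low-dose tumours relative to the other receptors of the same library as well as in CPM. In RNA from tissue, fewer cells of a type and less of a transcript per cell cannot be told apart.

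Outside the low-dose group the libraries of the groups overlapped for Tlr12. The log2 difference was 0.02 (SE 0.34, 95% interval −0.71 to 0.75) for stress over control. It was −0.25 (SE 0.34, interval −0.99 to 0.48) for high dose over stress and −0.23 (SE 0.34, interval −0.97 to 0.50) for high dose over control, with edgeR adjusted p-values of 0.9999, 0.9998 and 0.99999 in the order given. Stress replicate 1, at 64 counts, was the highest library. Without it the difference was −0.33 for stress over control and 0.10 for high dose over stress, so both directions turned. Without the 3 libraries rich in muscle transcripts, the difference of high dose over control was −0.61 and that of high dose over stress −0.53. The intervals leave room for differences between these groups of up to about 1 log2 unit.

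The 250 bases before the start sites of Tlr12 and Tlr9, the 2 receptors with the widest range between libraries, are shown from RefSeq's annotation of GRCm38.p6, in which 8 of the 10 receptors had a promoter entry. The Tlr12 window is chr4:128618620-128618869 on the minus strand, and the Tlr9 window chr9:106222348-106222597 on the plus strand. Both run 5′ to 3′ towards the start site, and capitals mark matches to motifs of factors that act in myeloid cells.
Tlr12: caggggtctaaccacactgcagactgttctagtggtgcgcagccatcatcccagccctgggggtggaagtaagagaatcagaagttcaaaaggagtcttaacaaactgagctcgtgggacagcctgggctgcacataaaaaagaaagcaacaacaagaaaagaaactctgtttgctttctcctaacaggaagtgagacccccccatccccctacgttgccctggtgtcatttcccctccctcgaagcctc
Tlr9: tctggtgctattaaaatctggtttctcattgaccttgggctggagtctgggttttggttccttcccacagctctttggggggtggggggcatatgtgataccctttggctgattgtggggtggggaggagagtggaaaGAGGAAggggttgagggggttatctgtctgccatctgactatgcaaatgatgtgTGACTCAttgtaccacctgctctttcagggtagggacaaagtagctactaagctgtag
The motifs searched, on both strands, were GAGGAA for PU.1, TGANTCA for AP-1, GAAANNGAA for interferon regulatory factors, GGNNTTTCC for NF-kB and TTGCNNAA for C/EBP. The Tlr12 window held no match to these exact runs of letters, and other forms of the motifs were not searched. The Tlr9 window held GAGGAA starting 112 bases before the start site and 1 TGANTCA match 58 bases before it, a palindrome that reads as the same match on both strands. Over 32851 RefSeq promoter windows of 250 bases, 23.3% held GAGGAA, so that such a match is common, and 6.75% held TGANTCA. The share was 7.13% for GAAANNGAA, 4.93% for GGNNTTTCC and 9.56% for TTGCNNAA. A match here is a run of letters, not a site shown to be bound. Among the other promoter entries, GAGGAA was found for Tlr1, Tlr8 and Tlr13, GAAANNGAA for Tlr6 and Tlr8, GGNNTTTCC for Tlr3, and TTGCNNAA for Tlr3, Tlr6 and Tlr8.

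Among the endosomal receptors, Tlr9 (chr9:106222598-106226876), which recognises DNA with unmethylated CpG, was the most uneven in low-dose tumours. It had 69, 7 and 24 counts in low-dose replicates 1, 2 and 3. High-dose tumours had 48, 66 and 49 counts, stress tumours 74, 62 and 37, and control tumours 83, 70 and 59. Low-dose replicate 1 lay within the range of the stress libraries, while the other two low-dose libraries lay below every library of the other groups. The mean was 1.91 ± 1.78 CPM in low-dose tumours, 3.13 ± 0.655 in high-dose tumours, 3.35 ± 1.12 in stress tumours and 4.16 ± 0.663 in control tumours (SD, n = 3 each). The log2 difference was −0.81 (SE 0.56) for low dose over stress, and −1.86 without low-dose replicate 1. For stress over control it was −0.31 (SE 0.54, 95% interval −1.49 to 0.86), and for high dose over stress −0.10 (SE 0.54, interval −1.28 to 1.09), with edgeR adjusted p-values of 0.9999 and 0.9998. The second of these became 0.13 without stress replicate 1.

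Tlr3 (chr8:45395665-45411075, minus strand), the receptor for double-stranded RNA, had 39.8, 22.3 and 20.6 CPM in low-dose tumours. It had 32.7, 33.5 and 34.9 CPM in high-dose tumours, 47.6, 36.7 and 26.9 in stress tumours and 34.9, 33.2 and 32.3 in control tumours. As with Tlr9, low-dose replicates 2 and 3 were the 2 lowest libraries of the 12, and replicate 1 was among the highest. High-dose and control tumours were tightly grouped, at 33.7 ± 1.14 and 33.5 ± 1.32 CPM (SD, n = 3 each), and their difference was 0.01 on the log2 scale (SE 0.24, 95% interval −0.51 to 0.53). The log2 difference of low dose over stress was −0.43 (SE 0.24), and −0.79 without low-dose replicate 1.

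Tlr7 (chrX:167303380-167330574, minus strand), a receptor for single-stranded RNA, was the one receptor whose libraries did not overlap between stress and control. Stress tumours had 23.7, 19.1 and 17.9 CPM, against 16.8, 13.4 and 13.7 CPM in control tumours. The log2 difference was 0.47 (SE 0.28, 95% interval −0.13 to 1.07) and did not pass the test (edgeR adjusted p = 0.9999); it lay between 0.34 and 0.58 over all alternatives. Of all genes tested, 7.08% did not overlap as higher in stress tumours and 7.02% as lower, and 1 of 10 receptors is near that background. High-dose tumours had 20.2, 12.4 and 15.0 CPM, overlapping both stress and control tumours. Low-dose tumours had 27.6, 12.5 and 14.0 CPM, so that replicate 1 was the highest and replicate 2 close to the lowest of the 12 libraries.

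Tlr8 (chrX:167241123-167264329, minus strand), the neighbour of Tlr7 on the X chromosome, spread in the same way. It had 26.6, 9.89 and 14.2 CPM in low-dose tumours, 19.7, 11.99 and 14.99 in high-dose tumours, 21.2, 19.7 and 12.7 in stress tumours and 19.2, 17.3 and 14.7 in control tumours. Tlr13 (chrX:106143275-106160493), which in mice recognises bacterial ribosomal RNA, had 29.7, 16.6 and 14.6 CPM in low-dose tumours. Its other libraries lay between 15.9 and 24.0 CPM. The log2 difference of stress over control was 0.07 (SE 0.32) for Tlr8 and 0.16 (SE 0.24) for Tlr13, and that of high dose over stress was −0.20 (SE 0.32) and −0.04 (SE 0.24). None passed the test. The Tlr7 counts were not whole numbers, and no receptor sharing reads with it was found.

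At the cell surface, Tlr4 (chr4:66827551-66846581), the receptor for bacterial lipopolysaccharide, had the narrowest range of the 10 in CPM, though not in TPM. It averaged 57.6 ± 10.99 CPM in low-dose tumours, 61.4 ± 7.33 in high-dose tumours, 56.8 ± 6.03 in stress tumours and 56.5 ± 5.78 in control tumours (SD, n = 3 each). The log2 difference was 0.11 (SE 0.15, 95% interval −0.21 to 0.43) for high dose over stress and 0.01 (SE 0.15, interval −0.31 to 0.33) for stress over control. Tlr2 (chr3:83836272-83841824, minus strand), which pairs with Tlr1 or Tlr6 to bind bacterial lipopeptides, averaged 24.7 ± 6.48 CPM in low-dose tumours and 25.6 ± 4.99 in high-dose tumours. It averaged 25.3 ± 4.22 CPM in stress tumours and 20.9 ± 1.41 in control tumours. The log2 difference of stress over control was 0.27 (SE 0.20, interval −0.16 to 0.71), and the libraries of these groups overlapped.

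Tlr1 (chr5:64924680-64933600) and Tlr6 (chr5:64953092-64970942), neighbours on the minus strand of chromosome 5, could not be separated cleanly. Their coding sequences share a run of 229 identical bases, the longest of the 45 pairs of receptors, against 18 for the next pair. The windows of 300 coding bases that hold this run are shown because reads from them can be given to either gene; they are chr5:64925466-64925765 for Tlr1 and chr5:64953757-64954056 for Tlr6, minus strand, and capitals mark the 2 bases that differ.
Tlr1: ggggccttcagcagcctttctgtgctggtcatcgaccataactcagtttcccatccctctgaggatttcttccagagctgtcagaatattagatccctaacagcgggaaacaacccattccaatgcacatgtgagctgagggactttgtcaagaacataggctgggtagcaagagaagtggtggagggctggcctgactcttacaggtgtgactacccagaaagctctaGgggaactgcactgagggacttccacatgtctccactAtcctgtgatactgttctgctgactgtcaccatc
Tlr6: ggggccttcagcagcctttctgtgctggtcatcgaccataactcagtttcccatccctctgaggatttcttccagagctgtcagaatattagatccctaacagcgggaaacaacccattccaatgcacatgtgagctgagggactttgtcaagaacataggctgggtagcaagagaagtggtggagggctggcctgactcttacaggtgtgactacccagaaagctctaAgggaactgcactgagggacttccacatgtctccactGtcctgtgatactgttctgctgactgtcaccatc
The deposited counts of both genes had fractions, which added up to whole numbers within 0.011 in 12 of 12 libraries. Tlr1 took 57.9%, 30.5% and 50.8% of the joint count in low-dose tumours, 65.1%, 54.0% and 49.6% in high-dose tumours, 55.5%, 60.1% and 56.0% in stress tumours and 63.1%, 49.6% and 47.8% in control tumours. The split was thus most uneven in low-dose replicate 2, where Tlr1 stood at 2.41 CPM, its lowest level, while Tlr6 stood at 5.58 CPM. The joint count was 266, 139 and 145 in low-dose tumours, 259, 187 and 211 in high-dose tumours, 259, 205 and 187 in stress tumours and 203, 198 and 163 in control tumours. Taken separately, the log2 difference of low dose over stress was −0.47 (SE 0.38) for Tlr1 and 0.00 (SE 0.22) for Tlr6. For the sum it was −0.25 (SE 0.23). Stress over control was 0.19 for the sum (SE 0.23), and high dose over stress 0.00 (SE 0.23). Neither of the differences of the sum without low-dose libraries passed the test, and Tlr1 alone or Tlr6 alone is reported as uncertain.

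The order of the group means differed from gene to gene and was mostly not resolved. Each gene gives 3 steps between neighbouring group means, 30 in all. The single step at which the libraries of the neighbours did not overlap was that of Tlr12, with high-dose tumours above low-dose tumours, a step for which the gene was chosen. Control was the lowest group for Tlr2, Tlr4, Tlr6, Tlr7 and Tlr13. The low-dose group was the lowest for Tlr1, Tlr3, Tlr9 and Tlr12, and the high-dose group for Tlr8. Apart from that 1 step, every step was smaller than the larger SD of its groups.

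The low-dose libraries varied more among themselves than those of the other groups, with the same library highest for every receptor. Replicate 1 was the highest low-dose library for 10 of 10 genes. The lowest was replicate 2 for 7 genes and replicate 3 for 3. A shared highest library was not particular to the low dose. Replicate 1 was also the highest stress library for every receptor except Tlr4. In every group it was the highest library for Tlr1, Tlr7 and Tlr8. Over all 12 libraries, low-dose replicate 1 was the highest for 5 genes, low-dose replicate 2 the lowest for 6 and low-dose replicate 3 the lowest for 3. The coefficient of variation, the SD as a percentage of the mean, had a median over the 10 genes of 39.5% in low-dose tumours, 20.7% in high-dose tumours, 18.9% in stress tumours and 13.1% in control tumours. It was largest in the low-dose group for 8 of 10 genes. For Tlr12, however, that highest low-dose library was at 10 counts and below all libraries of the other groups. Without low-dose replicate 1, edgeR called Tlr3, Tlr9 and Tlr12 against stress, among 1244 genes called, a description from which nothing is read. With that replicate left out, low dose over stress stood at −1.07 for Tlr1, −0.61 for Tlr7, −0.57 for Tlr8 and −0.36 for Tlr13. With it, the log2 differences were −0.47, −0.16, −0.08 and 0.02. The values of Tlr1 are uncertain, as its reads are shared with Tlr6. For Tlr12 the change was small, to −2.74, and its call rests on the low-dose values for which it was chosen.

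**Figure D2:**
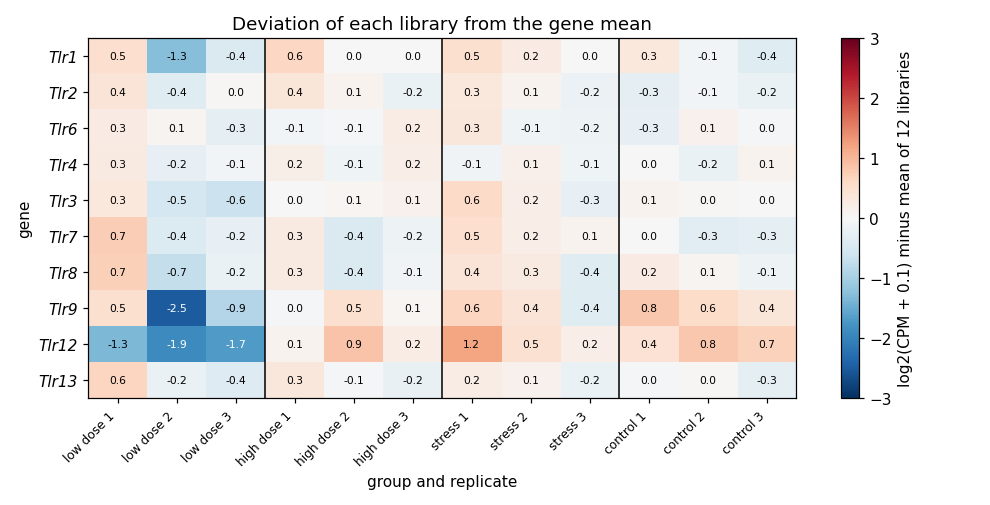
Deviation of each library from the gene's mean over 12 libraries, in log2(CPM + 0.1), with libraries in columns by group and replicate and receptors in rows; red is above and blue below the mean. Tlr12 is blue in all 3 low-dose columns, whereas the other receptors are red in low-dose replicate 1 and blue or near 0 in most cells of low-dose replicates 2 and 3.

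Pairs of receptors also followed each other across the 12 libraries, which share depth and normalisation. Of 45 pairs, 14 had a Pearson r of log2 CPM above 0.7. The highest was 0.83 for Tlr7 with Tlr8, and 0.93 after each group's mean was subtracted. It was followed by Tlr1 with Tlr8 and by Tlr7 with Tlr13, at 0.83 and 0.82. Values of Tlr1 alone are uncertain, as its reads are shared with Tlr6. The share of pairs above 0.7 was not set against that of other gene pairs. For Tlr12, whose low-dose values chose it, r was highest with Tlr9 (0.75, and 0.61 within groups) and Tlr3 (0.66, and 0.65 within groups). It was 0.08 with Tlr2 and 0.12 with Tlr6, but 0.58 and 0.55 within groups, close to the values for Tlr9 and Tlr3. With Tlr13 it was 0.07 and within groups 0.37, with Tlr7 0.03 and 0.21, and with Tlr4 0.01 and −0.09. These values describe 12 libraries and carry no test.

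In the comparisons without low-dose libraries, none of the 10 receptors passed the test. The median log2 difference of the receptors for stress over control was 0.11, with 9 genes above 0 and 1 below, against a median of 0.0059 and 51.7% above 0 over all genes tested. For high dose over stress it was −0.07, with 3 genes above 0 and 7 below, against −0.0038 and 48.9%. For high dose over control it was 0.10, with 7 above 0 and 3 below, against 0.0017 and 50.5%. The first 2 splits leaned on 1 library. Without stress replicate 1, Tlr3, Tlr6, Tlr8 and Tlr12 fell below 0 for stress over control, at −0.07, −0.11, −0.07 and −0.33. Tlr1, Tlr3, Tlr9, Tlr12 and Tlr13 then rose above 0 for high dose over stress, at 0.12, 0.08, 0.13, 0.10 and 0.05. These comparisons share their stress or control libraries, so their directions are not separate evidence. No receptor had an unadjusted p under 0.05 in these comparisons, where 2.85%, 1.42% and 1.04% of all genes did for stress over control, high dose over stress and high dose over control. Outside Tlr7, no receptor had groups that did not overlap; for high dose over stress the share of all genes that did not overlap was 2.43% higher and 3.32% lower, and for high dose over control 3.77% and 4.93%.

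For comparisons with low-dose libraries the counts are given beside the background and nothing is read from them. The median log2 difference of the 10 receptors was −0.12 for low dose over stress, 0.07 for high dose over low dose and 0.01 for low dose over control. Tlr12 is left out of these counts, as its low-dose values chose the set and carry no test. No other receptor had an unadjusted p under 0.05 in any of the comparisons, where 13.4%, 6.39% and 13.2% of all genes did. No other receptor had libraries that did not overlap. Over all genes, 5.37% did not overlap as higher and 6.57% as lower in low dose against stress. The shares were 4.16% and 3.18% for high dose against low dose, and 7.65% and 9.74% for low dose against control.

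**Figure D3:**
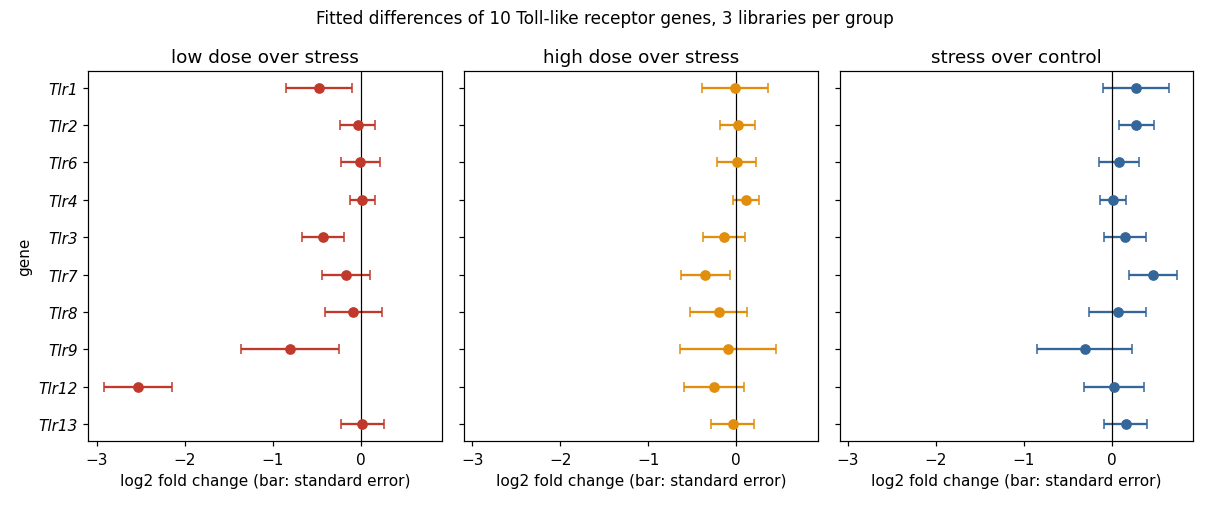
Fitted log2 fold change of each receptor for low dose over stress, high dose over stress and stress over control, with bars of 1 standard error and 3 libraries per group. Tlr12 stands at −2.53 for low dose over stress, and all other points of the 3 panels lie between −0.81 for Tlr9 and 0.47 for Tlr7.

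The rest of the pathway was followed through lists of accessory proteins, adaptors, negative regulators and induced cytokines. No gene of these lists had an adjusted p under 0.05 in any comparison. Of 15 accessory and trafficking proteins, all tested, 11 were above 0 and 4 below for stress over control (median log2 difference 0.06), and 9 above and 6 below for high dose over stress (median 0.01). Of 25 adaptors and kinases, all tested, 16 were above 0 and 9 below for stress over control (median 0.05), and 13 above and 12 below for high dose over stress (median 0.02). All 10 negative regulators were tested, with 7 above 0 and 3 below for stress over control (median 0.04) and 3 above and 7 below for high dose over stress (median −0.05). Of 21 cytokine, chemokine and costimulatory genes, 16 were tested, as Ifnb1, Il10, Il12a, Il23a and Il6 were too scarce. Of those 16, 10 were above 0 and 6 below in both comparisons, with medians of 0.08 for stress over control and 0.14 for high dose over stress.

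**Figure D4:**
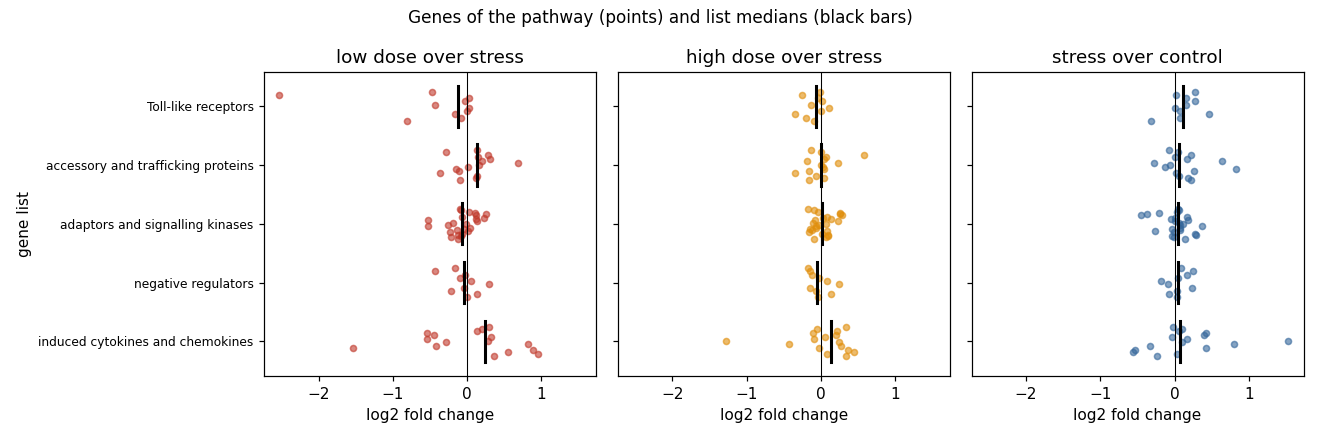
Fitted log2 fold change of each tested gene of the receptor set and of 4 pathway lists for low dose over stress, high dose over stress and stress over control; points are genes and black bars are list medians. The medians lie between −0.12 and 0.23, and Tlr12 at −2.53 is the lowest point of the 3 panels.

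Among the partners of the receptors, some held a narrow range and others did not. Lbp, which carries lipopolysaccharide to Cd14 and Tlr4, averaged 35.2 ± 24.6 CPM in low-dose tumours, 40.3 ± 31.4 in high-dose tumours, 39.2 ± 29.0 in stress tumours and 22.1 ± 5.22 in control tumours (SD, n = 3 each). Myd88, the adaptor of most of the family, had 42.1, 40.9 and 34.7 CPM in low-dose tumours, 42.3, 44.4 and 38.9 in high-dose tumours, 43.2, 39.1 and 37.1 in stress tumours and 37.0, 37.6 and 35.4 in control tumours. The high-dose and control libraries of Myd88 did not overlap, at a log2 difference of 0.19 (SE 0.10) that did not pass the test (edgeR adjusted p = 0.99999). Of 66 genes tested in the pathway lists, 2 lay higher in high-dose tumours without overlap, where 3.77% of all genes did. Another 3 lay lower, where 4.93% of all genes did. Tirap, which brings Myd88 to Tlr2 and Tlr4, differed by 0.09 (SE 0.11) for high dose over stress and by −0.03 (SE 0.11) for stress over control. Ticam1, the adaptor of Tlr3, differed by 0.02 (SE 0.21) and 0.27 (SE 0.21) in those comparisons. Unc93b1, which carries the nucleic acid receptors and Tlr12's partner Tlr11 to endosomes, differed by −0.16 (SE 0.22) and 0.22 (SE 0.22). In low-dose tumours it had 76.1, 42.9 and 49.1 CPM, with replicate 1 the highest of the 12 libraries, as for 5 of the receptors. Cd14 and Ly96, which present lipopolysaccharide to Tlr4, differed by −0.13 (SE 0.19) and −0.06 (SE 0.29) for high dose over stress.

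Of the 66 genes tested in the 4 pathway lists, 3 had an unadjusted p under 0.05 for stress over control, where 2.85% of all genes did. They were Irak1 and Irak2, kinases recruited through Myd88, and Cxcl1, a chemokine that draws neutrophils. Irak1 had 78.2, 99.4 and 76.0 CPM in stress tumours, against 110.3, 112.1 and 105.5 CPM in control tumours. All 3 stress libraries lay below all control libraries, as for 4 of the 66 genes (Irak1, Irak2, Hsp90b1 and Sigirr), where 7.02% of all genes did. Another 5 (Tab2, Ticam1, Lgmn, Tnfaip3 and Rnf216) lay above without overlap, where 7.08% of all genes did. These genes were picked for naming after their values were seen. For Irak1 the log2 difference was −0.37 (SE 0.14, edgeR adjusted p = 0.9999). For Irak2 it was −0.46 (SE 0.21) and for Cxcl1 1.53 (SE 0.66). Cxcl1 was uneven within the stress group, with 2.04, 2.21 and 13.3 CPM in replicates 1, 2 and 3. For high dose over stress, Cxcl1 stood at −1.28 (SE 0.65), Irak1 at 0.26 (SE 0.14) and the kinase Tbk1 at −0.16 (SE 0.08). For high dose over control, Cd36, a coreceptor of Tlr2 with Tlr6, stood at 0.80 (SE 0.37), Cd40 at 0.59 (SE 0.36) and Tbk1 at −0.16 (SE 0.08). None of these passed the test, and 0 of the 66 genes had an unadjusted p under 0.05 in these last 2 comparisons, where 1.42% and 1.04% of all genes did.

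The transcription factors of the pathway differed in how far they spread between libraries. Rela, a subunit of NF-kB, lay between 105.9 and 126.3 CPM, Nfkb1, another subunit, between 124 and 186.3 CPM, and Irf3, which acts downstream of Ticam1, between 36.0 and 46.2 CPM. Irf7, which drives interferon genes downstream of Tlr7 and Tlr9, lay between 13.1 and 74.7 CPM, both in stress tumours. Irf8, which dendritic cells need in order to develop, lay between 27.6 and 60.0 CPM, again both in stress tumours. The log2 difference for high dose over stress was −0.08 (SE 0.53) for Irf7 and 0.22 (SE 0.26) for Irf8. It was 0.34 (SE 0.35) for Tnf, 0.37 (SE 0.87) for Il1b and 0.24 (SE 0.57) for Cxcl10, an interferon-induced chemokine. Il12b, the cytokine subunit made by dendritic cells after receptor stimulation, had 0.506, 0.115 and 0.181 CPM in low-dose tumours and 0.407 to 1.39 in the other 9 libraries. Il6 was at or below 0.80 CPM in every library. The inhibitors Irak3 and Tnfaip3 differed by −0.15 (SE 0.36) and −0.15 (SE 0.20) for high dose over stress, and by 0.25 (SE 0.36) and 0.23 (SE 0.20) for stress over control.

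As a description of the low-dose tumours, the list genes with the smallest unadjusted p against stress included Cd86 at −0.54 (SE 0.19), Il12b at −1.54 (SE 0.67), Tbk1 at −0.23 (SE 0.08), Nfkb1 at −0.25 (SE 0.11) and Tnip1 at −0.21 (SE 0.09). Ctsl, a protease that trims endosomal receptors, stood at 0.68 (SE 0.22) and Irf3 at 0.23 (SE 0.10). In all, 7 of the 66 genes had an unadjusted p under 0.05, where 13.4% of all genes did. The other receptors of the family, Tlr5 for flagellin and Tlr11 for profilin, were scarce. Tlr11 had 10, 2 and 4 counts in low-dose tumours, 11, 8 and 6 in high-dose tumours, 26, 17 and 7 in stress tumours and 13, 9 and 9 in control tumours. Low-dose replicate 1 thus reached the level of control tumours for Tlr11, which it did not for Tlr12. The log2 difference of Tlr11 was −1.63 (SE 0.59) for low dose over stress and −1.01 (SE 0.56) for high dose over stress. Tlr5 lay between 0.459 and 3.09 CPM, both in low-dose tumours.

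Markers of conventional dendritic cells were also low in the low-dose libraries. The summed CPM of 10 such markers was 36.4, 19.7 and 36.6 in low-dose tumours, 53.5, 62.6 and 57.6 in high-dose tumours, 76.0, 51.7 and 38.6 in stress tumours and 64.2, 67.1 and 59.8 in control tumours. All 3 low-dose libraries were below all 9 others, none of the 10 markers was at 0 in any library, and 10 of 10 had a log2 difference below 0 for low dose over stress, with a median of −1.36. Over all genes tested, 49.9% were above 0 in that comparison and the median was −0.0004. All 5 tested T cell markers and all 5 endothelial markers were below 0 as well, each with a median of −0.36. Much of the sum was Itgax, at 10.6, 5.52 and 19.2 CPM in low-dose tumours and 10.5 to 38.3 in the others, and Zbtb46, at 15.6, 10.1 and 10.8 CPM in low-dose tumours and 11.2 to 19.6 in the others. Across the 12 libraries the Pearson r with the summed markers was 0.90 for Tlr12, 0.88 for Tlr9 and 0.70 for Tlr3. The first draws on the low-dose values that chose the gene; after each group's mean was subtracted, r was 0.77 for Tlr12, 0.81 for Tlr9 and 0.64 for Tlr3, and for single markers with Tlr12 it was 0.71 for Itgax, 0.45 for Zbtb46 and 0.26 for Clec9a. Per 100 CPM of these markers, Tlr12 stood at 1.54, 1.75 and 1.15 CPM in low-dose tumours and between 3.22 and 4.91 CPM in the other 9 libraries; these too are the low-dose values for which the gene was chosen. The part of dendritic cell markers in the low level of Tlr12 was not tested.

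Markers of macrophages, monocytes and T cells followed several other members more closely than Tlr12. Macrophage markers summed to 2661, 1763 and 1609 CPM in low-dose tumours, 2340, 1276 and 1384 in high-dose tumours, 1809, 1900 and 1175 in stress tumours and 1362, 1303 and 1205 in control tumours, and all 10 were detected in every library. Their r was −0.44 with Tlr12 but 0.78 with Tlr13, 0.71 with Tlr2, 0.70 with Tlr7 and 0.60 with Tlr8. T cell markers, which summed to 37.0, 21.6 and 21.2 CPM in low-dose tumours and 17.01 to 61.76 in the others, gave r of 0.73, 0.71, 0.74 and 0.73 with the same 4 receptors and 0.23 with Tlr12, so these values are not particular to macrophages. Within groups Tlr12 had r of 0.14 with macrophage, 0.20 with monocyte and 0.54 with T cell markers. It was 0.60 with plasmacytoid dendritic cell and 0.47 with neutrophil markers. For single markers, r of Tlr12 within groups ran from −0.18 for Adgre1 to 0.74 for Fcgr1 among macrophage markers. Among monocyte markers it ran from 0.03 for Vcan to 0.72 for Ly6c2. Monocyte markers summed to 551.1, 321.1 and 342.6 CPM in low-dose tumours and 364.2 to 504.4 in the others. Their r was 0.83 with Tlr8 and 0.81 with Tlr1, whose level alone is uncertain. Low-dose replicate 1 was thus the highest library for both the macrophage and the monocyte sum, as it was for 5 receptors. Much of the monocyte sum was Vcan, at 472.6, 291.1 and 184.7 CPM in low-dose tumours and 292.3 to 458.6 in the others. Of the other monocyte markers, Ly6c2 was highest in stress replicate 1 and Ccr2 in high-dose replicate 3. Chil3 and Plac8 were highest in low-dose replicate 3. Of the markers of plasmacytoid dendritic cells, which use Tlr7 and Tlr9, Siglech reached at most 0.47 CPM, and Klk1 and Ly6d were each at 0 in 7 libraries. Their sum, mostly the widely expressed genes Bst2 and Tcf4, was 189.7 to 203.5 CPM in low-dose tumours, 198.0 to 267.6 in high-dose tumours, 168.9 to 245.3 in stress tumours and 203.1 to 232.8 in control tumours. B cell markers summed to 0.52 to 1.87 CPM over all libraries. The part of any of these cells in the receptor levels was not tested.

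**Figure D5:**
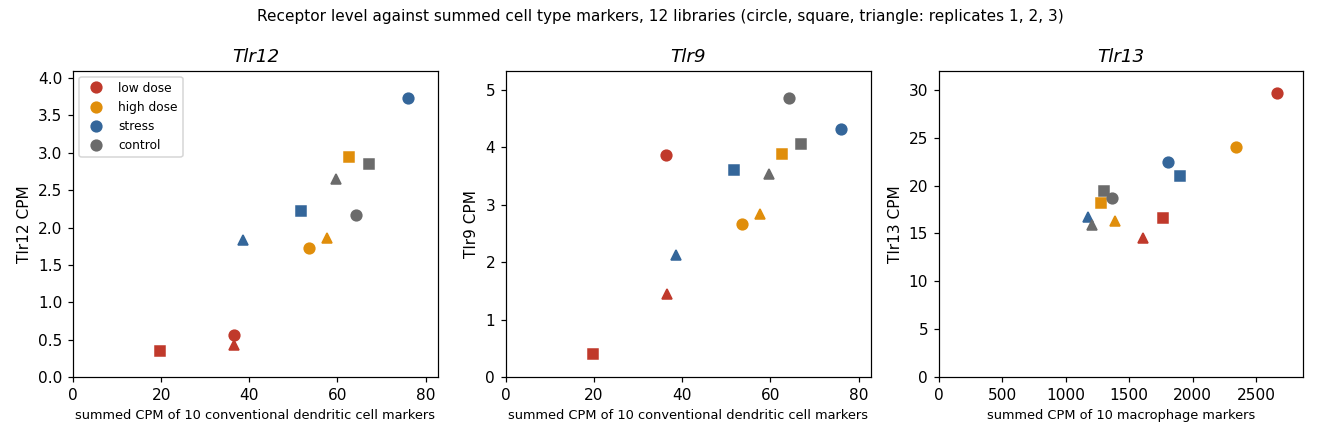
Level of Tlr12 and of Tlr9 against the summed CPM of 10 conventional dendritic cell markers, and of Tlr13 against the summed CPM of 10 macrophage markers; each point is a library, coloured by group, with circles, squares and triangles for replicates 1, 2 and 3. The low-dose libraries of Tlr12 lie at 0.34 to 0.56 CPM and 19.7 to 36.6 CPM of markers, and low-dose replicate 1 is the highest library for both Tlr13 and macrophage markers.

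The genes whose level followed Tlr12 most closely were ranked by Pearson r of log2 CPM over the 12 libraries, among 12300 genes with a mean of at least 1 TPM. They were Dnase1l3 (r = 0.97), Dennd3 (0.91), Cgn (0.91), Itga1 (0.90) and Aida (0.90). Since the low-dose values of Tlr12 weigh heavily in r, a low level in low-dose tumours comes with the choice of these genes and is no further result. After each group's mean was subtracted, r was 0.74, 0.67, 0.71, 0.53 and 0.56 in that order. Dnase1l3, a secreted DNase made by dendritic cells and macrophages, had 0.562, 0.0575 and 0.241 CPM in low-dose tumours and 2.5, 3.76 and 1.63 in high-dose tumours. It had 4.72, 3.32 and 2.29 CPM in stress tumours and 4.10, 3.49 and 3.96 in control tumours. Cgn, which encodes the tight junction protein cingulin, had 2.47, 1.44 and 1.45 CPM in low-dose tumours and 2.83 to 6.91 in the others. Itga1, the collagen-binding integrin subunit alpha 1, had 3.15, 2.87 and 4.52 CPM in low-dose tumours and 5.06 to 8.06 in the others. Dennd3 had 5.17 to 5.40 CPM in low-dose tumours and 5.89 to 9.59 in the others, and Aida 134.3 to 150.8 and 156.7 to 177.3 CPM. Among the genes of the lists, Cd86, a costimulatory molecule of dendritic cells and macrophages, came closest, at rank 16 (r = 0.87, and 0.90 within groups). Tlr9 was at rank 290.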

How the data were processed

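Poly(A) RNA of 12 tumour libraries was sequenced as stranded paired reads. Per the submitters' processing notes, the authors used cutadapt 1.9, HISAT2 2.0.4, StringTie 1.3.4d and GRCm38.p6, with DESeq2 and edgeR named without role or version; the annotation and counting options are not given in the sources used here. The deposited estimated counts per gene were left unscaled by the authors, and 11.7% to 12.5% of them in each library were not whole; they were rounded here. The deposited TPM, which the authors scaled by gene length and to an equal sum per library, served to compare genes. The deposited FPKM of the authors were used only to check units.

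Counts were filtered with filterByExpr at a minimum count of 10, scaled by TMM and tested with edgeR 4.0.16 (quasi-likelihood, robust, R 4.3.3) in 1 model of 4 groups, with 8 residual degrees of freedom. The p-values were 2-sided and adjusted by Benjamini-Hochberg over 13453 genes, with a threshold of 0.05. The standard error was the log2 fold change over the square root of F. Correlations used log2 CPM with a prior count of 2. Scripts were tested on simulated counts. The receptors, pathway lists and markers were chosen with earlier results of these data known. All 10 receptors were named, with a few fixed pathway genes, up to 3 per list and comparison with the smallest unadjusted p, and the 5 genes most like Tlr12. Alternatives covered scaling, filters, libraries left out, the replicate number as a block, DESeq2 1.42.0 and limma 3.58.1. Replicate numbers did not pair the libraries. The marker genes Cdx2 and Trac were not analysed here.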

Additional observations from a re-analysis of the deposited data

How the results depend on the processing

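No receptor and no gene was called by the edgeR fit in any comparison. Leaving out each replicate in turn gave 0 to 3 receptors and 0 to 1244 genes called for low dose over stress, 0 to 1 and 0 to 99 for high dose over low dose, and 0 to 2 and 0 to 652 for low dose over control. All of those calls came without low-dose replicate 1: Tlr3, Tlr9 and Tlr12 against stress, Tlr12 for high dose over low dose, and Tlr9 and Tlr12 against control. That left 2 low-dose libraries, and the cause was not tested. Of 13453 genes fitted, DESeq2 called 95 for low dose over stress, 5 for high dose over low dose and 71 for low dose over control. It called 1 each for stress over control and high dose over control. Tlr12 was the 1 receptor called, in low dose over stress and in high dose over low dose. Its adjusted p for low dose over control was not given by DESeq2. All calls of Tlr12, by either tool, rest on the low-dose values for which it was chosen and are no further result. A fit of the 6 libraries compared called 1 gene for high dose over control, and leaving out the 3 libraries rich in muscle transcripts called 1 for low dose over control. Over the alternatives, Tlr12 ranged from −2.74 to −2.17 for low dose over stress, −2.72 to −2.35 for low dose over control and 1.96 to 2.48 for high dose over low dose; a minimum count of 50 removed it. Of 834 receptor differences recomputed, 90 changed sign, all with a size of at most 0.30 in the edgeR fit. Replicate numbers did not pair the libraries: same-numbered libraries correlated at −0.451 to 0.415 in their deviations from the group means, 5 of 12 correlated best with their own number, and the fit with the replicate block called 0 genes and 0 receptors. Summing Tlr1 and Tlr6 was chosen after seeing the data. At 6 to 10 counts, the low-dose level of Tlr12 is limited by depth.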
